A study of Mus musculus with 58 samples.

Results

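The forestomach of vehicle-treated Muta™Mouse males was compared with the lung of vehicle-treated males of the same experiment. The arrays were chosen by their titles, which give the tissue, the mouse and the vehicle dose, and not by any measured value. They were 4 forestomach arrays (mice 1, 2, 3 and 5) and 5 lung arrays (mice 1 to 5), 9 of the 58 arrays of the series and 9 of the 39 from lung and forestomach. The study asked how lung, liver and forestomach respond to indeno(123,cd)pyrene (IP), a polycyclic aromatic hydrocarbon. All 9 arrays here came from Muta™Mouse males, which carry a lacZ reporter transgene, of about 13 weeks that were gavaged with olive oil alone for 28 consecutive days. Tissue was taken 72 hours after the last gavage, and RNA was extracted from random pieces of the frozen organ, the right lobe in the case of lung, so each array is a mixture of all cells of a piece. The methods give 4 mice in the vehicle group, whereas the lung labels number 5. All 5 lungs were used.

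Each array carried Cy5-labelled tissue RNA and a Cy3-labelled universal reference RNA made from mouse cell lines. The value of a probe is log2(Cy5/Cy3) after loess normalization within the array, so 0 means equal signal from tissue and reference. A gene is represented by its brightest probe. Values in sentences are ordered as forestomach mice 1, 2, 3 and 5 and lung mice 1, 2, 3, 4 and 5. The difference is forestomach minus lung on the log2 scale, and a probe was called at a false discovery rate adjusted p up to 0.05 in limma, with a difference of 1.5-fold or more. Every lung array lay in row 1 of its slide and every forestomach array in row 2, so tissue and array row cannot be told apart. Between 43.1 and 52.4% of probes were well above background on the forestomach arrays and between 53.0 and 85.5% on the lung arrays, with the upper value on lung mouse 3, whose slide was brighter throughout. Leaving out that array changed the number of called probes from 10954 to 11191.

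The forestomach of the mouse is the upper part of the stomach and is lined by a keratinized stratified squamous epithelium, in which basal cells divide, move upward, exchange their keratins and finish as cornified plates. The lung is lined by airway epithelium with club and ciliated cells and by alveoli, where flat type 1 cells exchange gas with a dense capillary bed and type 2 cells secrete surfactant. Both organs develop from the foregut, and both are targets of hydrocarbons that cytochrome P450 enzymes convert to reactive products.

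In all, 10954 of 55681 probes were called, which is 19.7%. They were 5001 higher and 5953 lower in forestomach. Of 20018 genes, 2948 (14.7%) were higher in forestomach and 3480 (17.4%) lower, and the median difference over all genes was 0.0049. The split depended on the scaling: with arrays centred on the median in place of loess, 2412 probes were higher and 10235 lower. Differences of 16-fold or more were found for 208 genes higher and 104 genes lower. Correlations between arrays were 0.841 to 0.960 within forestomach, 0.934 to 0.964 within lung and 0.464 to 0.565 between the tissues. For mice 1, 2 and 5 both tissues were on the same slide, and forestomach mouse 3 shared a slide with lung mouse 4. On these 4 slides, 10728 of the called probes (97.9%) had the same sign in every forestomach and lung pair. The probes were called on these same arrays, so this share describes the calls and is no independent check of them. In bulk tissue, fewer cells of a type and less RNA per cell cannot be told apart, which holds for every cell marker below.

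**Figure D1:**
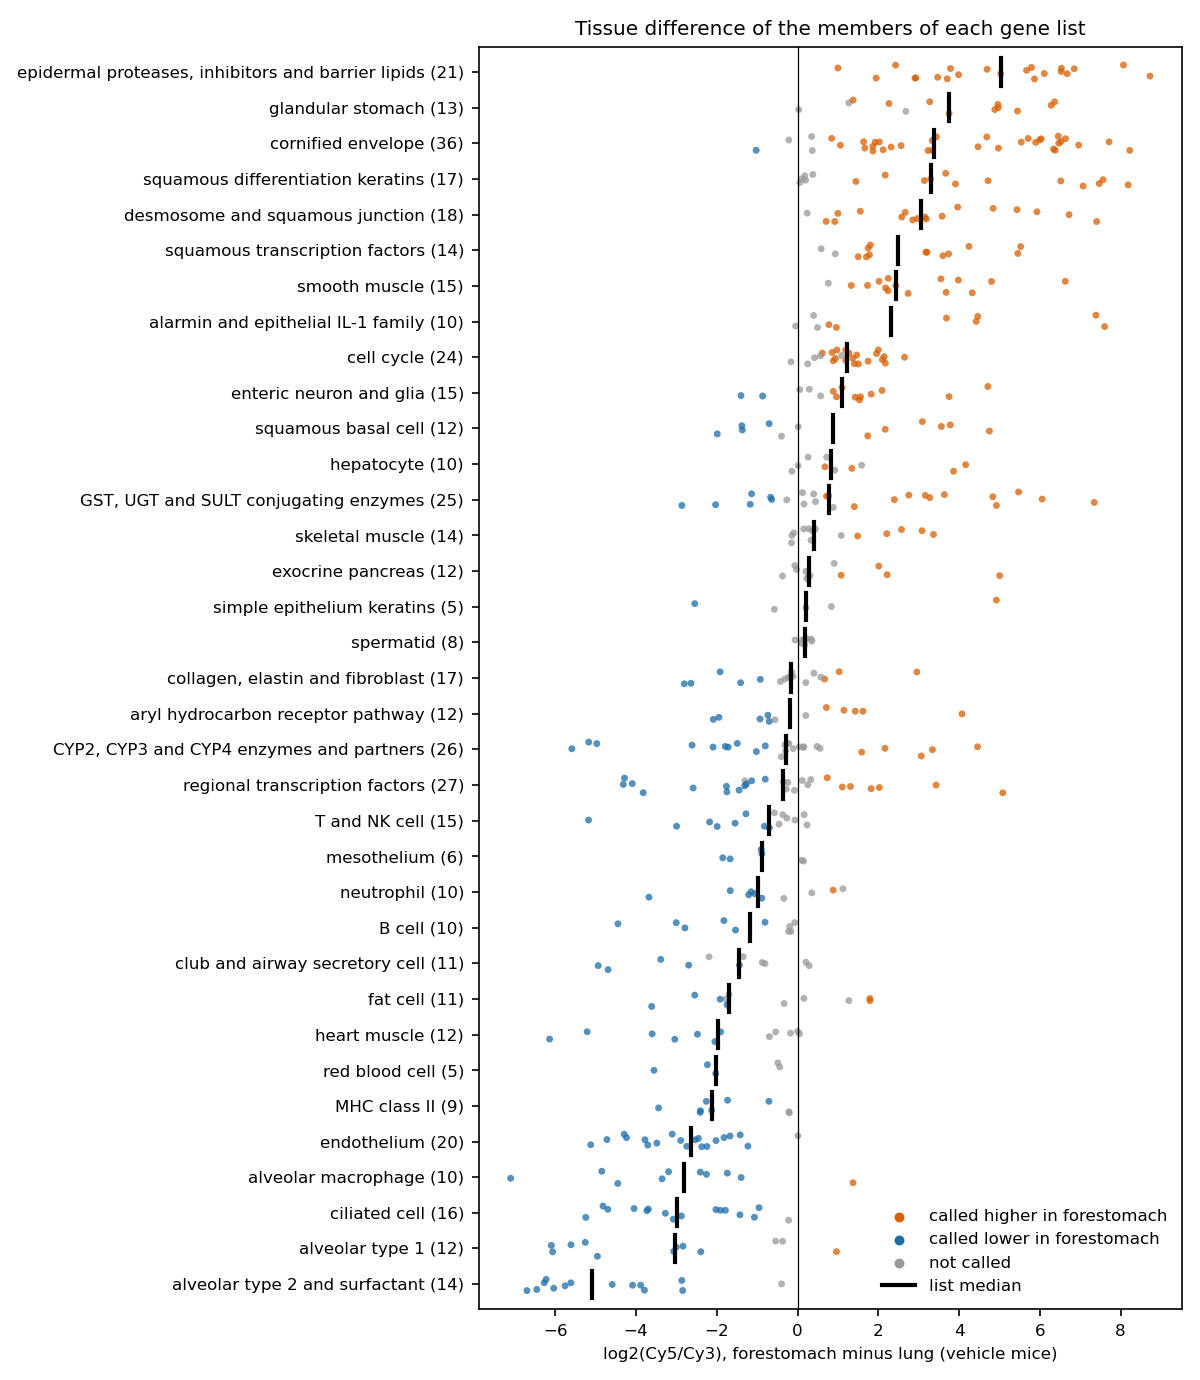
Each point is a gene of 1 of 35 lists, placed at its log2(Cy5/Cy3) in forestomach minus lung of vehicle mice (horizontal axis); orange points were called higher in forestomach, blue points lower and grey points not called, black ticks are list medians, and numbers in brackets are genes measured. Lists of differentiated squamous cells lie near the top with medians of 2.49 to 5.03, beside glandular stomach at 3.75, and alveolar lists at the bottom with −5.10 and −3.04.

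The keratins of differentiating squamous cells gave some of the largest differences. Keratins are the filament proteins of epithelia, and each layer of a stratified epithelium uses its own pairs. Of 17 measured differentiation keratins, 12 were higher in forestomach, beside 14.7% of all genes, and no member was lower. The median difference was 3.30. Krt1, the type II keratin of suprabasal cells in cornifying epithelia, read 7.27, 8.12, 7.68 and 8.58 in forestomach against −0.18, −0.42, −0.50, −0.09 and −0.17 in lung. The groups lay far apart, with a difference of 8.19 ± 0.22 (SE), adjusted p = 1.91e-10. Its partner Krt10 read 6.33, 7.06, 7.17 and 7.19 in forestomach against −0.45, −0.50, −0.38, −0.54 and −0.78 in lung, a difference of 7.47 ± 0.17. The second Krt10 probe differed by 4.61. Krt4 and Krt13, the pair of mucosal squamous epithelia such as the oesophagus, differed by 6.52 ± 0.18 and 7.07 ± 0.28. The second Krt13 probe differed by 5.67. Forestomach therefore held both the epidermal pair and the mucosal pair above lung in every mouse. Krt6b and Krt16, keratins of the hair follicle, oral mucosa and healing skin, differed by 7.57 ± 0.12 and 3.91 ± 0.14. The second Krt6b probe differed by 4.67. Krt76, a keratin of the oral palate, varied among forestomachs, at 3.75, 2.01, 0.46 and 2.39, while lung lay between −0.08 and 0.07. Krt2, Krt24, Krt36, Krt77 and Krt80 were not called.

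The basal layer gave a divided picture. Krt14 and Krt5, the filament pair of basal cells, and Krt15, a keratin of basal and progenitor cells, were all higher in forestomach. Krt14 read 3.57, 3.87, 4.08 and 4.10 in forestomach against −1.11, −0.94, −0.40, −0.85 and −0.92 in lung, a difference of 4.75 ± 0.15 (SE), adjusted p = 7.37e-10. Krt5 read 3.20, 3.63, 3.73 and 3.86 in forestomach against 0.00, 0.22, 0.13, 0.24 and 1.99 in lung, and Krt15 read 3.52, 3.60, 3.46 and 3.58 in forestomach against −1.11, −0.87, −0.15, −0.58 and 1.5 in lung. In both, lung mouse 5 stood above the other lungs but below every forestomach. Basal cells also line the large airways. Col17a1 and Itgb4, hemidesmosome proteins that anchor basal cells, differed by 3.56 ± 0.19 and 2.17 ± 0.16. Other anchoring proteins went the other way. Lama3, a laminin chain of the basement membrane, read 1.02, 1.28, 0.72 and 0.97 in forestomach against 3.02, 2.71, 2.23, 1.71 and 2.17 in lung, a difference of −1.37 ± 0.23 (SE), adjusted p = 0.000593. Itga6, the integrin partner of Itgb4, was lower too, at −1.38 ± 0.21. In all, 6 of 12 basal genes were higher and 4 lower, with a median of 0.88. Trp63, the transcription factor that defines stratified epithelia, had 2 probes that disagreed: the brighter differed by −0.40 and was not called, the other by 6.17 (adjusted p = 3.04e-09).

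**Figure D2:**
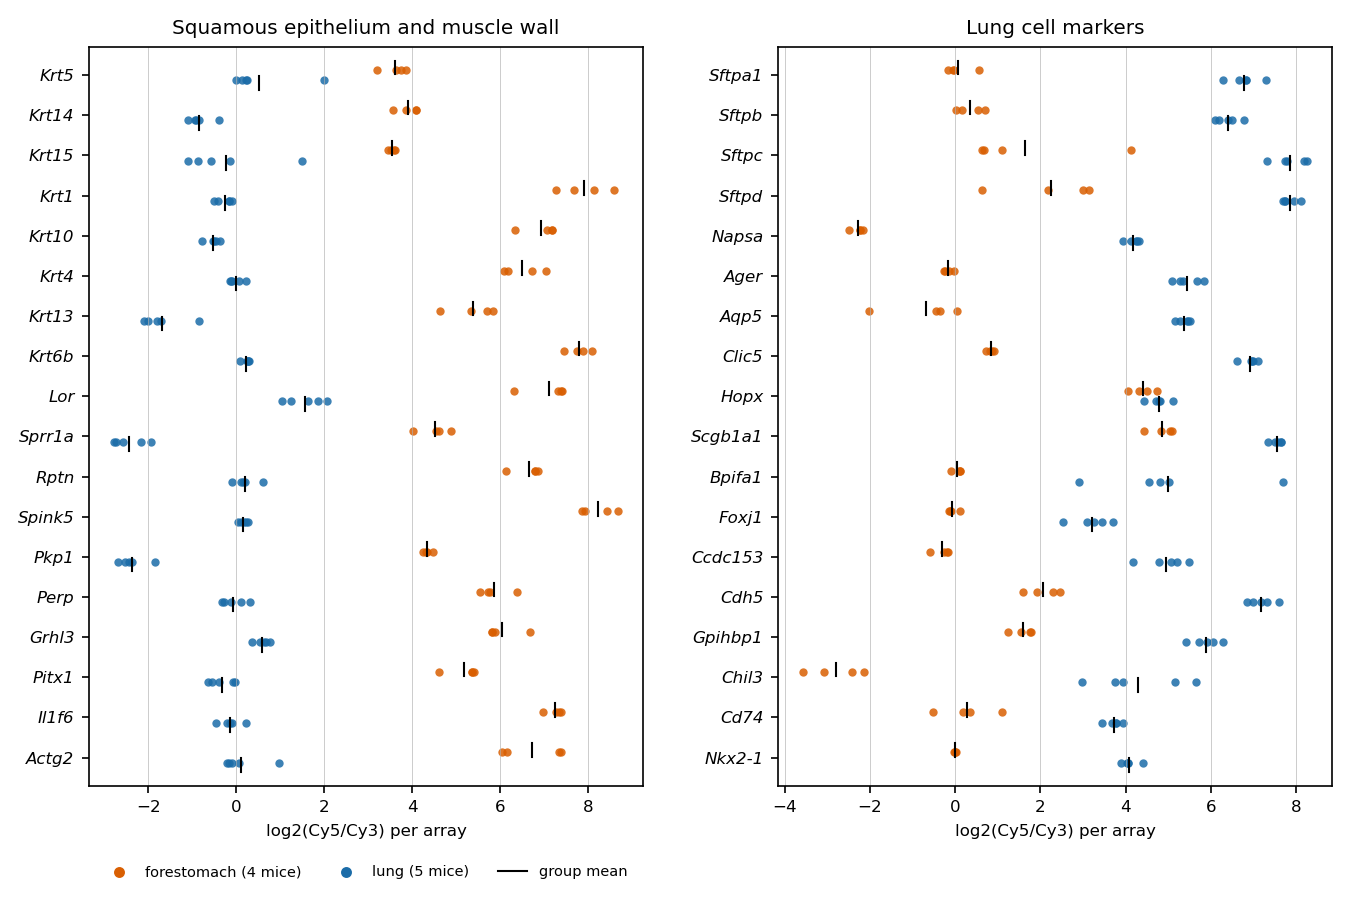
Log2(Cy5/Cy3) of single arrays for selected squamous and muscle genes (left) and lung cell markers (right); orange points are 4 forestomach arrays, blue points 5 lung arrays and black ticks group means. In the left panel the groups do not overlap for any gene, and lung mouse 5 is the separate blue point for Krt5 (1.99) and Krt15 (1.5); in the right panel Hopx is the gene in which the groups overlap, and the separate orange point for Sftpc (4.12) is forestomach mouse 1.

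Proteins of the cornified envelope, the crosslinked shell that replaces the membrane of a dying squamous cell, were higher as a group. Of 36 measured members, 32 were higher in forestomach and 1 was lower, and the median difference was 3.39. Loricrin (Lor), the main envelope protein of the epidermis, read 6.30, 7.31, 7.38 and 7.42 in forestomach against 2.05, 1.63, 1.23, 1.85 and 1.05 in lung. The difference was 5.54 ± 0.26 (SE), adjusted p = 1.68e-08, and the highest lung value stood more than 4 units below the lowest forestomach value. Sprr1a, a small proline-rich crosslinked protein, read 4.02, 4.54, 4.62 and 4.89 in forestomach against −2.74, −2.59, −2.17, −1.95 and −2.78 in lung, a difference of 6.96 ± 0.20 (SE), adjusted p = 4.04e-10. Lce3a, a late cornified envelope protein, differed by 8.22 ± 0.11, Crct1, its neighbour on the chromosome, by 7.71 ± 0.15, and Rptn, a filaggrin-like matrix protein, by 6.46 ± 0.17. Involucrin (Ivl), an early scaffold of the envelope, differed less, at 1.64 ± 0.23, with forestomach values of 2.22, 0.92, 1.51 and 2.25. The second Ivl probe differed by 1.08. The brighter Ivl probe was itself dim, with a mean log2 Cy5 of 7.58 in forestomach and 6.95 in lung. Tgm1, the membrane transglutaminase that makes the crosslinks, differed by 4.47 ± 0.18, whereas the 2 probes of Tgm3 disagreed (−0.22 and 3.18). The exception was Tchh, a protein of the hair root sheath, which read 0.21, 0.82, 0.38 and 0.43 in forestomach against 2.17, 1.46, 0.68, 1.58 and 1.53 in lung, with overlapping groups and a difference of −1.03 ± 0.24 (SE), adjusted p = 0.00575. With the log ratio of the scanner software (the scanner ratio) in place of the loess ratio, the Tchh call was lost (−1.44, adjusted p = 0.320).

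Many of these genes lie side by side on mouse chromosome 3, in the epidermal differentiation complex. In the RefSeq gene order, 25 listed genes lay between Lor and Tchh, and 18 further measured genes of that stretch were in no list. Of these 18, 16 were higher in forestomach and none was lower, with a median of 5.15. Kprp, a keratinocyte proline-rich protein, read 7.81, 7.66, 7.86 and 7.77 in forestomach against −0.33, 0.12, −0.08, −0.37 and 0.03 in lung, a difference of 7.90 ± 0.11 (SE), adjusted p = 7.03e-12. Lce1b of the late cornified envelope family differed by 6.95 ± 0.12. The 2 uncalled genes were Tdpoz8 and Sprr2a2. The same count was made between listed genes of 4 other families. Among type I keratins, 6 of 43 further genes were higher and 1 lower (median 0.097), near the 14.7% of all genes. Among type II keratins, 5 of 17 were higher (median 0.16). Among serpinb genes, 5 of 6 were higher (median 4.14), as was the 1 further gene among kallikreins. The Lce and Sprr2 genes are recent duplicates with similar sequences, so their probes may share signal.

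The promoters of cornified envelope genes shared short sequences. The letters TGANTCA, with any middle base, are a loose form of the AP-1 site TGA(G/C)TCA. They were searched on either strand in a window of 250 bases before to 50 after the start. These letters were found in 17 of 32 members with a RefSeq promoter (53.1%) and in 9.0% of 27025 genes. All 17 were among the 28 higher in forestomach that had a promoter. TATAAA was found in the same share, 17 of 32, against 15.7% of all genes. These motifs were chosen for print after the shares of 16 motifs had been seen in every list, and the promoters of duplicated neighbours are not independent. The 200 bases before the start of 3 members are given 5′ to 3′ on the strand of the gene (RefSeq, build GRCm38.p6), with the TGANTCA letters in capitals. They are Sprr1a (chr3:92485882-92486081, minus strand), with 2 matches, Sprr2i (chr3:92407791-92407990, plus strand) and Rptn (chr3:93393499-93393698, plus strand). The Rptn match, TGATTCA, is a loose match only.
Sprr1a: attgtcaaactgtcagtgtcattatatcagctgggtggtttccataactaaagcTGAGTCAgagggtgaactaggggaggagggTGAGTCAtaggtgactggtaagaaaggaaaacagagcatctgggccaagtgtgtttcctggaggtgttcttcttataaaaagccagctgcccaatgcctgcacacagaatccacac
Sprr2i: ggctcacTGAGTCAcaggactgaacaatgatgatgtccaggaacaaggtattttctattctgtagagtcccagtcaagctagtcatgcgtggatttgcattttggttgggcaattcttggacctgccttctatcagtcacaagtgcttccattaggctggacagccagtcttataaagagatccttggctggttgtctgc
Rptn: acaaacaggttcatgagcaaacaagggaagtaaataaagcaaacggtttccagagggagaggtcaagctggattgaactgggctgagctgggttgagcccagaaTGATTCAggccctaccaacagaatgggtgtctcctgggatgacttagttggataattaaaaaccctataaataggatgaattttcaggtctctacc

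Sprr2i, the second of these, read 7.46, 6.20, 5.86 and 6.68 in forestomach against −0.04, 0.04, 0.01, 0.07 and 0.06 in lung and was not well above background on any lung array. For such genes a bound is given, the smaller of the fold of the mean ratios and the fold of the mean Cy5 level in the bright tissue over the floor of measured signal in the other. The Cy5 fold was computed per channel after loess and Aquantile normalization and is open to dye bias because no dyes were swapped. The bound takes no account of the spread among mice. Where the ratio fold is the smaller, the bound is the fitted fold itself and has the error of that fit. For Sprr2i the bound was at least 72.1-fold higher in forestomach, and the fitted difference was 6.52 ± 0.25 (SE), adjusted p = 3.4e-09. For Sprr3, another small proline-rich protein, it was at least 65.5-fold, with a fitted difference of 6.03 ± 0.16.

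The reference channel also differed at some of the brightest spots. At the Sprr3 spots, mean log2 Cy5 was 14.0 in forestomach and 6.19 in lung, but Cy3, which reports the same reference RNA on every array, was also higher on the forestomach arrays, at 8.79 against 5.57. Krt1 had a Cy5 difference of 9.86 and a Cy3 difference of 2.97. For Sftpc, a surfactant gene of lung, the Cy5 difference was −11.5 and the Cy3 difference −6.22. Of the 312 genes with differences of 16-fold or more, 99 had a Cy3 shift of over 1 in the same direction as Cy5. For genes higher in forestomach with log2 Cy5 below 11 the median Cy3 difference was −0.18, and with log2 Cy5 of 15 and above it was 3.02. The shift was not found at every bright spot: at log2 Cy5 of 15 and above, 26 of 34 genes higher in forestomach and 8 of 13 lower had a shift of over 1. The fitted ratio differed by 8.19 for Krt1 and −6.23 for Sftpc, both smaller in size than the Cy5 difference. Some genes with fitted differences below 16-fold were shifted as well. Krt5 had a Cy5 difference of 8.71, a Cy3 difference of 6.96 and a fitted difference of 3.09. For Hba-a1, a globin gene, the 3 values were −6.32, −4.43 and −2.03. The cause of the Cy3 shift was not tested.

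**Figure D3:**
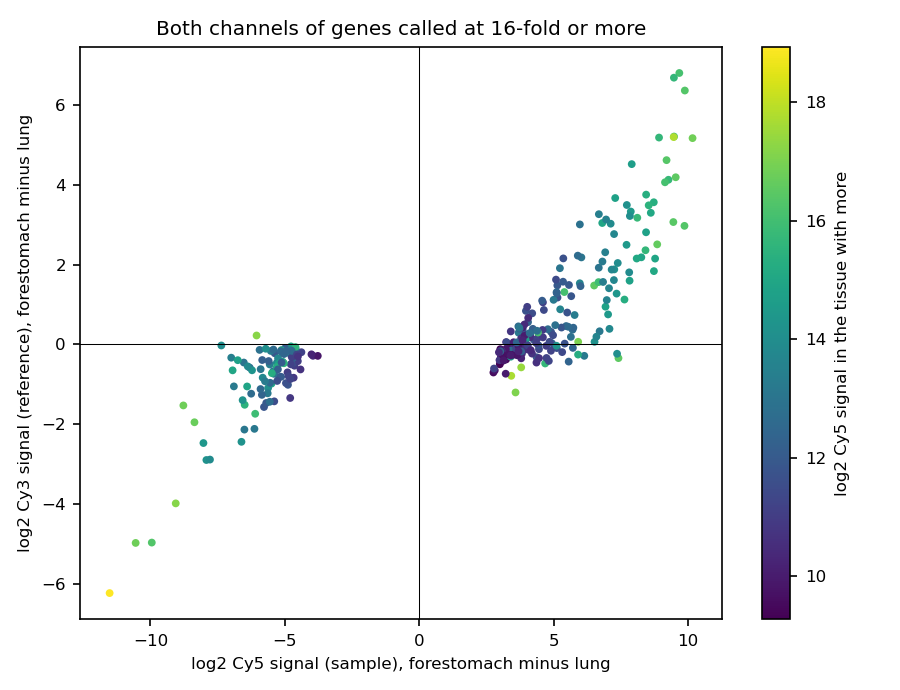
Each point is 1 of 312 genes called at a fold change of 16 or more, with its difference in mean raw log2 Cy5 signal (tissue RNA, horizontal axis) and in mean raw log2 Cy3 signal (reference RNA, vertical axis), both as forestomach minus lung, coloured by log2 Cy5 in the tissue with more. Many bright points leave 0 on the Cy3 axis in the direction of Cy5, to −6.22 at the lower left (Sftpc), while other bright points stay near 0.

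Junctions and barrier enzymes of squamous cells were higher with the envelope. Of 18 desmosome and junction genes, 17 were higher, with a median of 3.06. Pkp1, a desmosome plaque protein of stratified epithelia, read 4.25, 4.31, 4.34 and 4.46 in forestomach against −2.53, −2.70, −1.86, −2.44 and −2.38 in lung, a difference of 6.72 ± 0.15 (SE), adjusted p = 4.82e-11. Perp, a desmosome protein that p63 and p53 regulate, differed by 5.93 ± 0.18, and Gjb2, a gap junction connexin, by 5.43 ± 0.24. Dsc1, a cadherin of the uppermost layers, read 6.12, 4.04, 3.84 and 4.69 in forestomach and was not well above background in any lung, a bound of at least 19.2-fold. Dsp, which heart muscle also uses, differed less, at 3.15 ± 0.08, and its second probe differed by 2.01. Jup, a plaque protein shared with adherens junctions of other cells, was the member not called. It read 0.98, 1.33, 1.43 and 1.62 in forestomach against 1.54, 0.91, 0.72, 0.95 and 1.38 in lung. The groups overlapped, with a difference of 0.24 ± 0.18 (SE), adjusted p = 0.365. The Jup probe was dim, with a mean log2 Cy5 of 7.38 in forestomach and 7.77 in lung. Whether it reports the gene well was not tested.

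All 21 measured genes of epidermal proteases, their inhibitors and barrier lipids were higher in forestomach, with a median of 5.03. Spink5, the inhibitor that restrains kallikreins in the outer layers, read 7.85, 7.94, 8.44 and 8.68 in forestomach against 0.10, 0.18, 0.04, 0.21 and 0.26 in lung. No lung array was well above background, and the bound was at least 269-fold. Klk5, its kallikrein target, differed by 6.53 ± 0.13, and Serpinb5, a serpin of epithelial cells, by 6.85 ± 0.13. Elovl4, the elongase that makes very long fatty acids for barrier ceramides, had the largest difference of all genes under the naming rule, at 8.73 ± 0.22 (SE), adjusted p = 1.33e-10. It read 8.94, 7.75, 7.67 and 8.12 in forestomach against −0.56, −0.66, −0.39, −0.65 and −0.80 in lung. The second Elovl4 probe differed by 6.38, so its rank rests on the brighter probe. Cers3, the ceramide synthase of the same pathway, differed by 6.53 ± 0.14 and Abca12, the transporter that loads lipids into lamellar granules, by 5.87 ± 0.19. The 2 probes of Cers3 disagreed in size, and the dimmer differed by 1.70. Other genes near the top of the ranking were Ada, adenosine deaminase, an enzyme of purine breakdown, which read 7.49, 7.08, 7.05 and 7.22 in forestomach against −1.83, −0.48, −1.42, −1.70 and −1.82 in lung, and Cstdc5, of the stefin protease inhibitors, with a difference of 7.57 ± 0.28.

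Transcription factors of squamous cells followed: 12 of 14 were higher, with a median of 2.49. Pitx1, a homeobox factor of hindlimb and oral epithelium, read 4.62, 5.36, 5.37 and 5.40 in forestomach against −0.64, −0.56, −0.07, −0.39 and −0.03 in lung, a difference of 5.53 ± 0.18 (SE), adjusted p = 1.07e-09. Grhl3, a grainyhead factor needed for barrier formation, read 6.68, 5.81, 5.88 and 5.80 in forestomach and differed by 5.45 ± 0.17. Tfap2a and Klf4, factors of keratinocyte differentiation, differed by 3.60 ± 0.13 and 1.5 ± 0.16. The second Tfap2a probe differed by 1.52. Elf3, an ETS factor of both squamous and simple epithelia, read −0.21, 2.13, 1.89 and 1.65 in forestomach against 0.57, 0.22, 0.59, 0.49 and 0.30 in lung and was not called, at 0.93 ± 0.38 (SE), adjusted p = 0.0868. Without forestomach mouse 1 its difference was 1.46 (adjusted p = 3.21e-06).

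The epithelial members of the interleukin-1 family, alarm signals that barrier cells store, were among the most different genes. Il1f5, the receptor antagonist of the IL-36 branch, read 8.11, 7.71, 6.63 and 7.62 in forestomach against 0.05, −0.13, −0.23, −0.05 and −0.05 in lung, a difference of 7.60 ± 0.23 (SE), adjusted p = 5.06e-10. Il1f6 (IL-36 alpha) read 6.96, 7.27, 7.38 and 7.35 in forestomach, was not well above background in any lung and was at least 167-fold higher. Il18, which many epithelia hold as a precursor, differed by 3.69 ± 0.14, and Il33, a nuclear alarmin that lung cells also use, by 0.78 ± 0.11; with arrays centred on the median the Il33 call was lost (0.11, adjusted p = 0.791). In all, 7 of 10 members were higher and none was lower, with a median of 2.32.

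Genes of the muscle wall and its nerves were also higher in forestomach. Of 15 smooth muscle genes, 14 were higher in forestomach, with a median of 2.43. Actg2, the enteric smooth muscle actin, read 6.04, 6.17, 7.39 and 7.33 in forestomach against −0.11, −0.20, 0.05, −0.17 and 0.96 in lung, a difference of 6.63 ± 0.33 (SE), adjusted p = 2.67e-08. Tagln and Des, a contractile regulator and the muscle filament desmin, differed by 4.80 ± 0.19 and 4.33 ± 0.22. Myh11, the smooth muscle myosin that airways and vessels also contain, differed by 2.74 ± 0.31. Of 15 enteric neuron and glia genes, 10 were higher and 2 lower, beside 14.7% and 17.4% of all genes, with a median of 1.10. Tac1, the precursor of substance P, read 5.66, 3.71, 4.20 and 4.82 in forestomach against −0.28, −0.15, −0.24, 0.02 and 0.09 in lung and was at least 23-fold higher. Vip, a neuropeptide that relaxes gut muscle, differed by 3.75 ± 0.23, and S100b of glia by 1.56 ± 0.14. Stmn2 and Snap25, which neuroendocrine cells also express, were lower in forestomach, at −1.40 ± 0.13 and −0.87 ± 0.16, the Snap25 call being lost with Cy5 alone (−0.91, adjusted p = 0.0821).

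Skeletal muscle genes were higher in part, 5 of 14, beside 14.7% of all genes, with a median of 0.40. Tnni2, fast troponin I, differed by 3.37 ± 0.20. Myh2, a fast myosin, read 3.49, 0.69, 3.62 and 4.27 in forestomach, with mouse 2 below the other 3, and Acta1, skeletal actin, read 2.44, 1.28, 0.41 and 0.08. Lung values of Acta1 lay between −2.16 and −0.96. The oesophagus of the mouse, which opens into the forestomach, has striated muscle in its wall.

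Forestomach mouse 1 stood apart from the others in genes of the glandular stomach, the acid-secreting part next to the forestomach. In this array, 210 genes were at least 4-fold below each of the other 3 forestomachs and 9 at least 4-fold above. The other 8 arrays had at most 3 genes so far below and 7 so far above their own group. Gkn2, a secreted peptide of gastric surface cells, read 0.99, 8.28, 8.30 and 8.27. Cblif, the intrinsic factor that binds vitamin B12, read 0.24, 8.64, 8.69 and 8.71, and Atp4b, a subunit of the proton pump of parietal cells, read 0.17, 6.83, 6.72 and 7.12. In lung the 3 genes lay between −0.31 and 0.52. Mouse 1 thus lay near the lung values while mice 2, 3 and 5 lay close together far above them. The mean over 13 glandular stomach genes was 0.52 in mouse 1 and 5.64 to 5.79 in mice 2, 3 and 5, against 0.56 to 1.00 in lung.

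With this array included, the spread of such genes was wide. Of 13 glandular stomach genes, 10 were called higher in forestomach with all arrays, with a median of 3.75, and 12 without forestomach mouse 1, with a median of 5.04. Muc5ac, the mucin of surface cells, differed by 4.88 ± 0.86 (SE), adjusted p = 0.00091, Tff1, a trefoil peptide, by 4.97 ± 0.74, and Pgc, progastricsin, by 3.75 ± 0.89, its call being lost with the scanner ratio (3.21, adjusted p = 0.0566). Tff2, the trefoil peptide of mucous neck cells, read 0.01, 5.20, 5.42 and 5.46 in forestomach against 1.29, −0.06, 0.81, 1.05 and 3.63 in lung and was not called with all arrays. Its difference was 4.02 (adjusted p = 0.000247) without mouse 1 and 3.25 (adjusted p = 0.0400) without lung mouse 5. Chia1, a chitinase that stomach and lung both secrete, read 0.51, 8.82, 8.19 and 8.71 in forestomach against 6.02, 5.57, 3.86, 5.10 and 5.89 in lung. It was not called with all arrays and differed by 3.28 (adjusted p = 4.67e-05) without mouse 1. Anxa10, an annexin of gastric epithelium, had the largest SD among forestomachs of the 13930 genes measured there and read 0.06, 9.10, 8.98 and 8.88 in forestomach against 0.07, 0.22, −0.16, −0.07 and 0.07 in lung. Over all 19 forestomach arrays of the IP experiment, Anxa10 was well above background on 15 and ranged from 0.02 to 9.95. Krt1 was well above background on all 19 and ranged from 7.27 to 8.62. In the exposed groups, Anxa10 medians were 0.87, 2.85 and 4.99 in order of rising dose, against 8.93 with vehicle. Those of Cblif were 0.82, 0.31 and 6.13, against 8.67, and those of Pgc 0.44, 0.39 and 4.06, against 5.1. Tff1 medians lay closer to vehicle, at 5.32, 5.32 and 5.68 against 6.18. Low values of Anxa10, Cblif and Pgc were thus not limited to mouse 1.

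Keratins of simple epithelia moved with the same array. Of 5 measured, 1 was higher and 1 lower, beside 14.7% and 17.4% of all genes. Both counts are near that background. Krt8 and Krt18, the pair of simple epithelia, read −3.43, 1.66, 1.86 and 1.05 and −3.89, 0.58, 0.77 and 0.31 in forestomach and were not called (0.84 ± 0.88 and −0.57 ± 0.78). Krt19 read −1.90, 3.87, 3.90 and 3.48 in forestomach against 2.35, 1.90, 2.13, 2.35 and 1.93 in lung, so that mouse 1 lay below every lung and the other 3 above every lung. Without mouse 1, Krt8 and Krt19 were called higher in forestomach, at 2.08 (adjusted p = 1.02e-05) and 1.62 (adjusted p = 2.92e-06), and Krt18 turned to 0.54. Krt20, a keratin of gastric and intestinal surface cells, read −2.83, 3.04, 2.91 and 2.75 in forestomach against −3.96, −3.80, −2.20, −3.80 and −3.53 in lung, a difference of 4.92 ± 1.03 (SE), adjusted p = 0.00297. Krt7, a keratin of lung and duct epithelium, was lower in forestomach in every mouse, at −2.55 ± 0.27 (SE), adjusted p = 1.62e-05. Some genes of pancreas and liver also followed. Try4, a trypsin, read −0.43, 5.71, 6.05 and 5.84 in forestomach with a bound of at least 29.6-fold. Ttr, a plasma carrier, read 0.51, 5.57, 4.79 and 5.13, and Apoa1, an apolipoprotein, 0.21, 4.96, 5.17 and 5.15. Of 12 exocrine pancreas genes 4 were higher, with a median of 0.28, and of 10 hepatocyte genes 4, with a median of 0.82, beside 14.7% of all genes. Without mouse 1, 6 hepatocyte genes were higher. How far neighbouring tissue in the pieces contributed to these genes was not tested.

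**Figure D4:**
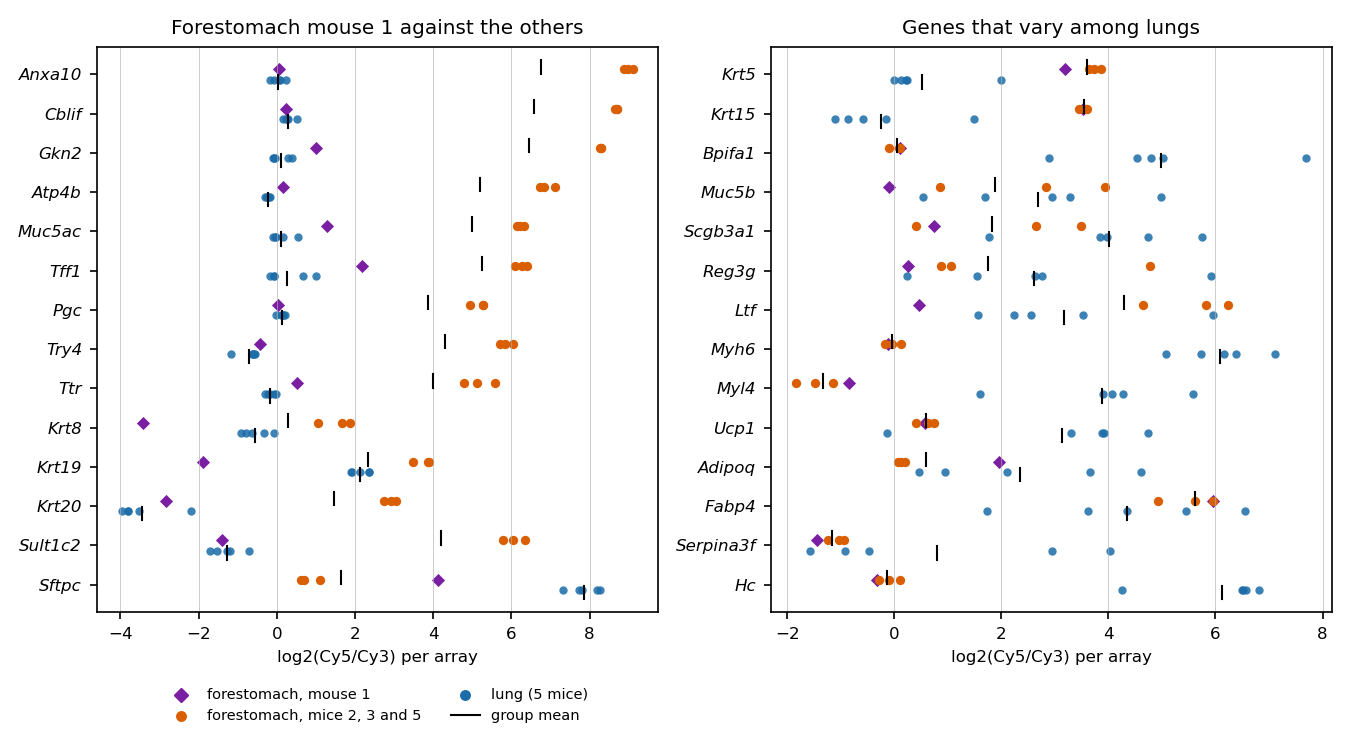
Log2(Cy5/Cy3) of single arrays for genes that set forestomach mouse 1 apart (left) and for genes that vary among lungs (right); purple diamonds are forestomach mouse 1, orange points forestomach mice 2, 3 and 5, blue points 5 lungs and black ticks group means. For Anxa10, Cblif and Gkn2 the diamond lies between 0.06 and 0.99 and the orange points above 8, while for Sftpc the diamond at 4.12 lies between the groups.

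Alveolar type 2 cells gave the most negative list. Of 14 genes, 13 were lower in forestomach, beside 17.4% of all genes, with a median of −5.10, and 4 were not well above background on any forestomach array. Sftpa1, a surfactant collectin, read 0.55, −0.16, −0.05 and −0.03 in forestomach against 6.29, 6.65, 6.82, 6.83 and 7.30 in lung. It was at least 104-fold lower in forestomach, with a fitted difference of −6.70 ± 0.20 (SE), adjusted p = 3.87e-10. Sftpb, the protein that spreads the surfactant film, differed by −6.04 ± 0.17, and Napsa, the aspartic protease that processes surfactant proteins, read −2.23, −2.15, −2.25 and −2.48 in forestomach against 4.31, 4.27, 4.13, 4.24 and 3.95 in lung, at least 82.3-fold lower. Sftpc, the type 2 cell marker, read 4.12, 1.11, 0.68 and 0.62 in forestomach against 7.31, 7.74, 7.80, 8.20 and 8.26 in lung, a difference of −6.23 ± 0.60 (SE), adjusted p = 7.99e-06. Forestomach mouse 1, with 4.12, lay well above the other 3 forestomachs and below every lung. In the exposed groups the highest forestomach values of Sftpc were 3.61, 1.56 and 2.90 in order of rising dose. Sftpd, a collectin that mucosal surfaces outside the lung also make, read 0.62, 2.99, 3.15 and 2.19 in forestomach, with mouse 1 lowest, and differed by −5.61 ± 0.41. Abca3, the lipid pump of lamellar bodies, and Slc34a2, the phosphate carrier of type 2 cells, differed by −2.84 ± 0.13 and −4.59 ± 0.10, the second with a bound of at least 24.1-fold. Hc, complement C5, read 6.82, 6.51, 4.26, 6.49 and 6.57 in lung, with mouse 3 lowest, and differed by −6.27 ± 0.43 (SE), adjusted p = 4.52e-07.

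Of 12 type 1 cell genes, 9 were lower in forestomach and 1 higher, beside 17.4% and 14.7% of all genes, with a median of −3.04. Ager, the receptor that marks type 1 cells, read −0.03, −0.14, −0.24 and −0.26 in forestomach against 5.27, 5.36, 5.08, 5.67 and 5.84 in lung and was at least 48.8-fold lower. Clic5, a chloride channel protein, and Aqp5, a water channel, differed by −6.10 ± 0.10 and −6.06 ± 0.33. Hopx, a cofactor found in type 1 cells and in differentiated squamous cells, read 4.05, 4.32, 4.49 and 4.75 in forestomach against 4.43, 4.72, 4.79, 4.81 and 5.12 in lung, with overlapping groups and a difference of −0.37 ± 0.16 (SE), adjusted p = 0.0966. Igfbp2, a binding protein of insulin-like growth factors, was the member called higher, at 0.96 ± 0.32 (SE), adjusted p = 0.036. It read 3.30, 2.16, 2.96 and 2.92 in forestomach against 2.29, 2.68, 1.12, 1.32 and 1.95 in lung, with overlapping groups. Its call was lost with mouse as a replicate block, which leaves out lung mouse 4 (0.82, adjusted p = 0.108). The call was lost, too, without any of lung mice 3, 4 and 5 or forestomach mice 1, 3 and 5 (0.77 to 0.98). It was also lost with median centring (0.39, adjusted p = 0.361), Cy5 alone (0.73, 0.146), the scanner ratio (0.96, 0.0887) and slide as a block (0.77, 0.0926). Differences at the 3 doses were 0.29, −0.14 and 0.01.

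Among airway genes, ciliated cell markers separated the tissues and secretory markers did so in part. Of 16 ciliated cell genes, 15 were lower in forestomach, with a median of −2.98, and 7 were not well above background on any forestomach array. Foxj1, the factor that switches on the motile cilium programme, read −0.11, −0.15, 0.11 and −0.11 in forestomach against 3.71, 3.09, 2.54, 3.45 and 3.26 in lung and was at least 9.67-fold lower. Ccdc153 and Dynlrb2, an axoneme protein and a dynein light chain, differed by −5.24 ± 0.22 and −4.82 ± 0.15. Dnah5, a heavy chain of the outer dynein arm, and Tekt1, a filament protein of cilia, were at least 9.22-fold and 13.3-fold lower. The letters GTTGCCA or GTTGCCT, part of the X-box bound by RFX factors of ciliated cells, were found on either strand in the promoters of 8 of 13 ciliated cell genes (61.5%), against 9.7% of all genes. These letters, too, were chosen for print after the shares of 16 motifs had been seen in every list. The 200 bases before the start of Ccdc153 (chr9:44240477-44240676, plus strand) and Dynlrb2 (chr8:116504815-116505014, plus strand) are given 5′ to 3′ on the gene strand in GRCm38.p6, with these letters in capitals, since their differences were the largest of the list.
Ccdc153: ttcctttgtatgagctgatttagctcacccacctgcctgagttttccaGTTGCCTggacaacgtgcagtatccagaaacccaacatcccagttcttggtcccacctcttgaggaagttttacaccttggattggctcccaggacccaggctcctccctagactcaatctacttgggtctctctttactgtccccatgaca
Dynlrb2: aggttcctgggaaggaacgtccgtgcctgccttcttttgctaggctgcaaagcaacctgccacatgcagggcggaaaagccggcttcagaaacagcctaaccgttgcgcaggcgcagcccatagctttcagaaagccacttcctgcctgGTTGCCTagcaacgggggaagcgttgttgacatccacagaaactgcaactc

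Of 11 club and airway secretory genes, 5 were lower in forestomach and 6 were not called, with a median of −1.44. Scgb1a1, the secretoglobin that defines club cells, read 5.08, 5.05, 4.43 and 4.83 in forestomach against 7.58, 7.51, 7.64, 7.35 and 7.65 in lung. The difference was −2.70 ± 0.13 (SE), adjusted p = 2.92e-08, and the ratio stayed well above 0 in forestomach too. At these spots the Cy5 difference was −7.14 and the Cy3 difference −4.56, so the ratio may understate the tissue difference. Bpifa1, an antimicrobial protein of the upper airway, read 4.54, 2.90, 4.80, 5.01 and 7.70 in lung. It was not well above background on any forestomach array. Its bound of 30.6-fold lower was the fitted difference itself, −4.94 ± 0.69 (SE), and the lungs varied widely. Muc5b, an airway mucin, and Bpifb1, a relative of Bpifa1, overlapped between the tissues: Muc5b read −0.10, 3.93, 2.84 and 0.85 in forestomach against 2.95, 0.54, 1.69, 3.28 and 4.98 in lung, and Bpifb1 0.20, 5.00, 5.00 and 5.00 in forestomach against 3.80, 1.68, 3.22, 3.74 and 5.12 in lung. Scgb3a1, a secretoglobin of proximal airways, read 0.74, 3.48, 2.65 and 0.42 in forestomach against 3.98, 1.77, 3.84, 4.74 and 5.74 in lung, a difference of −2.19 ± 0.78 (SE), adjusted p = 0.0506. It passed without lung mouse 2 (−2.75, adjusted p = 0.00921), without forestomach mouse 2 (−2.75, adjusted p = 0.0214) and with mouse as a random replicate block (−2.18, adjusted p = 0.0498). Reg3g, a lectin that kills bacteria, read 0.26, 4.78, 1.05 and 0.88 in forestomach against 2.76, 0.24, 1.54, 2.64 and 5.91 in lung. In lung, Bpifa1, Muc5b, Scgb3a1, Reg3g and Ltf, as well as Krt5 and Krt15, were highest in mouse 5, and the first 5 were lowest in mouse 2.

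The capillary bed of the lung appeared as a list that was lower in forestomach almost throughout. Of 20 endothelial genes, 19 were lower, with a median of −2.64. Cdh5, the cadherin of endothelial junctions, read 2.30, 1.58, 1.92 and 2.47 in forestomach against 7.59, 7.17, 7.00, 6.86 and 7.33 in lung, a difference of −5.12 ± 0.19 (SE), adjusted p = 2.65e-09. Egfl7 and Vwf, a secreted factor and the clotting protein of vessels, differed by −4.24 ± 0.10 and −3.48 ± 0.16, and Pecam1, an adhesion protein, by −2.45 ± 0.27. Gpihbp1, which carries lipoprotein lipase to the capillary lumen, differed by −4.29 ± 0.17. Kdr, the VEGF receptor, was the member not called, and its 2 probes disagreed: the brighter differed by 0.01 and the other by −4.20 (adjusted p = 1.97e-10).

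Of 10 alveolar macrophage genes, 9 were lower in forestomach and 1 higher, beside 17.4% and 14.7% of all genes, with a median of −2.80. Chil3, a chitinase-like protein of alveolar macrophages, read −3.57, −3.08, −2.43 and −2.14 in forestomach against 2.97, 3.75, 3.95, 5.66 and 5.16 in lung, a difference of −7.11 ± 0.49 (SE), adjusted p = 4.95e-07. Ear1 and Ear2, ribonucleases of macrophages and eosinophils whose probes may share signal, differed by −4.85 ± 0.29 and −4.45 ± 0.20. Marco, a scavenger receptor, read 3.01, 0.77, 0.80 and −0.07 in forestomach, with mouse 1 within the range of lung, and differed by −2.26 ± 0.54 (SE), adjusted p = 0.007. Its call was lost with the scanner ratio (−2.44, adjusted p = 0.0667). Pparg, the nuclear receptor that matures alveolar macrophages and also acts in fat and squamous cells, was higher in forestomach, at 1.37 ± 0.20 (SE), adjusted p = 0.000227, and its call was lost with arrays centred on the median (0.65, adjusted p = 0.181).

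Markers of lymphocytes and antigen presentation were lower in forestomach where they differed. Of 10 B cell genes 6 were lower, of 15 T and NK cell genes 8, and of 9 MHC class II genes 7, and no member of these lists was higher. Their medians were −1.17, −0.70 and −2.13. Cd79b, a chain of the B cell receptor, read −3.31, −4.18, −4.19 and −4.29 in forestomach against 1.04, −0.72, 0.36, 0.47 and 1.14 in lung, a difference of −4.45 ± 0.34 (SE), adjusted p = 1.16e-06. Cd3d, a chain of the T cell receptor complex, read −0.17, −0.40, −0.54 and −0.34 in forestomach against 3.06, 2.03, 2.34, 2.68 and 3.05 in lung and was at least 6.68-fold lower. Gzma, a protease of killer cells, differed by −5.18 ± 0.16. Lung mouse 2 was the lowest lung in Cd79b, Cd3d and Gzma. Cd74, the invariant chain of MHC class II, differed by −3.44 ± 0.25 and H2-Aa, a class II alpha chain, by −2.26 ± 0.22. The H2-Aa call was lost with the scanner ratio (−0.44, adjusted p = 0.600).

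Of 10 neutrophil genes, 6 were lower and 1 higher, beside 17.4% and 14.7% of all genes, with a median of −0.97. S100a8 and S100a9 form a dimer in neutrophils, and stressed keratinocytes also make them. S100a8 differed by −3.68 ± 0.18 (SE), adjusted p = 2.18e-08, while S100a9 read 5.80, 5.61, 5.11 and 5.18 in forestomach against 6.47, 6.53, 6.11, 6.84 and 6.93 in lung, a difference of −1.15 ± 0.19. With the scanner ratio the S100a9 call was lost and the difference was −0.056 (adjusted p = 0.906). Cxcr2, a chemokine receptor, was called higher at 0.88 ± 0.29 (SE), adjusted p = 0.0361, with overlapping groups, and lost its call without any of lung mice 2, 3 and 5 or forestomach mice 1 and 5 (0.63 to 0.91). The Cxcr2 call was also lost with median centring (0.59, adjusted p = 0.109), Cy5 alone (0.39, 0.305), the scanner ratio (2.19, 0.0747), slide as a block (0.68, 0.0554) and all 39 arrays (0.88, 0.147). Ltf, lactoferrin, read 0.46, 6.24, 5.82 and 4.64 in forestomach against 3.52, 1.56, 2.24, 2.55 and 5.95 in lung, with forestomach mouse 1 lowest, and was not called (1.12 ± 1.14), but differed by 2.40 (adjusted p = 0.0354) without that array. Of 5 red blood cell genes 3 were lower, with a median of −2.03, among them Hba-a1, an alpha globin, at −2.03 ± 0.10, and Alas2, the heme enzyme of erythroid cells, at −3.56 ± 0.12, with the Alas2 call lost under the scanner ratio (−1.07, adjusted p = 0.0502).

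Markers of heart muscle and fat varied among the lungs. Of 12 heart muscle genes, 7 were lower in forestomach, with a median of −1.98. Myh6, the atrial myosin that mouse pulmonary veins also contain, read −0.11, 0.12, −0.17 and −0.03 in forestomach against 5.08, 6.15, 5.74, 6.38 and 7.11 in lung, a difference of −6.14 ± 0.31 (SE), adjusted p = 3.46e-08. Its second, dimmer probe differed by −0.91. Myl4, an atrial light chain, read 1.60, 3.90, 4.07, 4.28 and 5.58 in lung, with mouse 1 lowest and mouse 5 highest, and differed by −5.21 ± 0.60 (SE), adjusted p = 3.16e-05. Myh7, the slow myosin of heart and skeletal muscle, differed by −3.60 ± 0.36. Of 11 fat cell genes, 4 were lower and 2 higher, the latter near the 14.7% of all genes, with a median of −1.70. Ucp1, the uncoupling protein of brown fat, read −0.13, 3.91, 3.88, 4.73 and 3.30 in lung, with mouse 1 below every forestomach, and was called at −2.55 ± 0.76 (SE), adjusted p = 0.0228. The call was lost without any of lung mice 2 and 4 or forestomach mouse 5 (−2.49 to −2.15), and with Cy5 alone (−2.23, adjusted p = 0.0660), the scanner ratio (−1.26, 0.542) and trended and robust variances (−2.55, 0.0786). Adipoq, adiponectin, read 1.97, 0.19, 0.07 and 0.12 in forestomach against 0.47, 4.61, 0.94, 2.10 and 3.66 in lung and was called only without lung mouse 1 or forestomach mouse 1 (−2.24 and −2.23), among the settings run. Fabp4, a fatty acid carrier of fat and capillaries, read 5.95, 5.62, 4.92 and 5.95 in forestomach against 1.74, 6.54, 3.61, 4.34 and 5.46 in lung. Mouse 1 had the lowest lung value of both and mouse 2 the highest. Serpina3f, a serpin, read −1.57, 4.03, −0.47, −0.91 and 2.94 in lung, high in mice 2 and 5. Across settings, 0 to 6 fat cell genes were lower, with 6 without lung mouse 1 and without forestomach mouse 1, and 2 without lung mouse 2 or 4 or forestomach mouse 3 or 5. Of 6 mesothelial genes, 4 were lower, with a median of −0.89, among them Upk1b, a uroplakin, at −1.67 ± 0.16. None of 8 spermatid genes, listed as a tissue absent from both organs, was called (median 0.17, differences of −0.06 to 0.35), and 1 of them, Tssk6, had an unadjusted p under 0.05.

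Of 17 matrix genes, 3 were higher in forestomach and 5 lower, beside 14.7% and 17.4% of all genes, with a median of −0.17. The count of higher genes is near that background. Lum and Dcn, small proteoglycans of collagen fibres, were higher in forestomach, at 2.95 ± 0.31 (SE), adjusted p = 1.47e-05 and 1.03 ± 0.14. Pdgfra, the receptor of lung fibroblasts, and Fbln5, which assembles elastic fibres, were lower, at −2.81 ± 0.15 and −2.64 ± 0.12. Col1a1, the main collagen of both organs, read −2.05, −1.92, −1.63 and −1.37 in forestomach against −1.97, −2.29, −2.18, −2.37 and −1.92 in lung and was not called (0.40 ± 0.15).

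Factors that pattern the foregut differed in both directions. Of 27, 7 were higher in forestomach and 12 lower, beside 14.7% and 17.4% of all genes, with a median of −0.35. Nkx2-1, the factor that specifies lung, read 0.00, −0.02, 0.02 and −0.01 in forestomach against 4.42, 4.05, 3.89, 4.04 and 4.06 in lung and was at least 17.1-fold lower. Tbx4 and Tbx5, mesenchymal factors of the lung bud, differed by −4.32 ± 0.24 and −3.82 ± 0.17, the second with a bound of at least 14.1-fold, and Tbx3 by −4.29 ± 0.14. Barx1, the mesenchymal factor of the stomach, read 2.91, 3.53, 3.14 and 3.74 in forestomach against −0.27, 0.10, −0.17, −0.18 and 0.03 in lung, a difference of 3.43 ± 0.16 (SE), adjusted p = 1.59e-08. Sox2, a factor of the squamous foregut and of airways, differed by 1.31 ± 0.19. Foxa2, an endoderm factor of lung and glandular stomach, read −0.64, 3.81, 3.59 and 3.69 in forestomach against 5.44, 5.27, 4.83, 5.10 and 5.34 in lung, with forestomach mouse 1 lowest, and differed by −2.58 ± 0.76 (SE), adjusted p = 0.0206. The Foxa2 call was lost with all 39 arrays in the fit (adjusted p = 0.0576), with trended and robust variances (0.0622) and with the scanner ratio (0.15).

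Genes of xenobiotic metabolism are of interest because the study exposed other mice to a hydrocarbon that acts through the aryl hydrocarbon receptor. Of 12 genes of that pathway, 5 were higher in forestomach and 5 lower, beside 14.7% and 17.4% of all genes, with a median of −0.18. Ahr, the receptor itself, read −0.42, −0.26, −0.39 and −0.17 in forestomach against 1.94, 1.70, 1.63, 1.49 and 2.10 in lung, a difference of −2.09 ± 0.13 (SE), adjusted p = 1.51e-07, and its second probe differed by −0.20. Its partner Arnt read −0.42, −0.43, −0.35 and −0.48 in forestomach against 0.13, 0.13, 0.03, 0.16 and 0.25 in lung; the groups did not overlap, but the fold change of 1.47 missed the threshold, which it passed without lung mouse 3 (−0.59). Cyp1a1, the hydrocarbon-oxidizing enzyme that the receptor induces, read 0.09, −0.25, 0.16 and 0.01 in forestomach against 4.08, 2.11, 1.95, 0.73 and 0.88 in lung. No forestomach array was well above background, all lungs were above them, and mouse 1 had the highest value. The bound was at least 2.7-fold lower in forestomach, and the fitted difference was −1.95 ± 0.54 (SE), adjusted p = 0.016. With all 39 arrays in the fit the adjusted p was 0.0711, and with trended and robust variances 0.0595. Cyp1b1, its relative in stromal cells, went the other way and read −0.79, −0.87, −0.12 and −0.43 in forestomach against −2.04, −2.48, −1.74, −1.88 and −1.76 in lung, a difference of 1.43 ± 0.18 (SE), adjusted p = 8.18e-05.

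Nqo1, a quinone reductase, read 2.42, 3.06, 2.99 and 1.97 in forestomach against −1.35, −1.60, −1.22, −1.65 and −1.48 in lung, a difference of 4.07 ± 0.20 (SE), adjusted p = 3.09e-08. Aldh3a1, an aldehyde dehydrogenase of surface epithelia, differed by 1.62 ± 0.17, Nfe2l2, which encodes NRF2, by 1.15 ± 0.11, and Ahrr, the repressor of the receptor, by 0.71 ± 0.13. Tiparp, another target, was lower at −0.93 ± 0.12. With arrays centred on the median, 2 genes of this list were called higher, and Cyp1b1, Nfe2l2 and Ahrr were not among them (0.71, 0.57 and 0.40).

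Of 26 CYP2, CYP3 and CYP4 enzymes and partners, 10 were lower in forestomach and 5 higher, beside 17.4% and 14.7% of all genes, with a median of −0.28. The count of higher genes is near that background. Cyp4b1, a lung monooxygenase that activates furans, read 2.50, 2.62, 2.04 and 2.64 in forestomach against 8.07, 8.24, 8.00, 7.86 and 8.04 in lung, a difference of −5.59 ± 0.13 (SE), adjusted p = 7.43e-11. Fmo1, a flavin monooxygenase, differed by −4.97 ± 0.12, and Cyp2b10 by −2.61 ± 0.37. Cyp3a13 read 4.09, 3.18, 2.94 and 3.60 in forestomach against lung values of −0.15 to 0.24, a difference of 3.34 ± 0.20, and Ephx2, soluble epoxide hydrolase, differed by 3.06 ± 0.21. Cyp2c65, an enzyme of gut epithelium, read 0.61, 5.64, 5.50 and 5.47 in forestomach and followed mouse 1, with a bound of at least 21.9-fold over lung.

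Conjugating enzymes were higher for 13 of 25 and lower for 6, beside 14.7% and 17.4% of all genes, with a median of 0.77. Gsta1, a glutathione transferase whose close relatives may share signal, read 4.10, 6.25, 6.43 and 6.40 in forestomach against −1.63, −1.55, −1.20, −1.70 and −1.68 in lung, a difference of 7.35 ± 0.41 (SE), adjusted p = 7.09e-08. Mouse 1 was again the lowest forestomach. Ugt2b34, a glucuronosyltransferase, differed by 6.06 ± 0.41, Gsto1, an omega-class transferase, by 3.64 ± 0.46, and Sult2b1, the cholesterol sulfotransferase of the cornified layer, by 4.84 ± 0.13, with forestomach values of 4.40, 4.09, 4.26 and 4.32. Sult1c2, a sulfotransferase, read −1.39, 6.03, 5.78 and 6.34, with mouse 1 at the level of lung. Gsta3 and Sult1a1 were lower in forestomach, at −2.86 ± 0.19 and −2.03 ± 0.21. With the scanner ratio the calls of Sult1c2 (6.00, adjusted p = 0.0696) and Sult1a1 (−0.90, 0.0533) were lost.

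**Figure D5:**
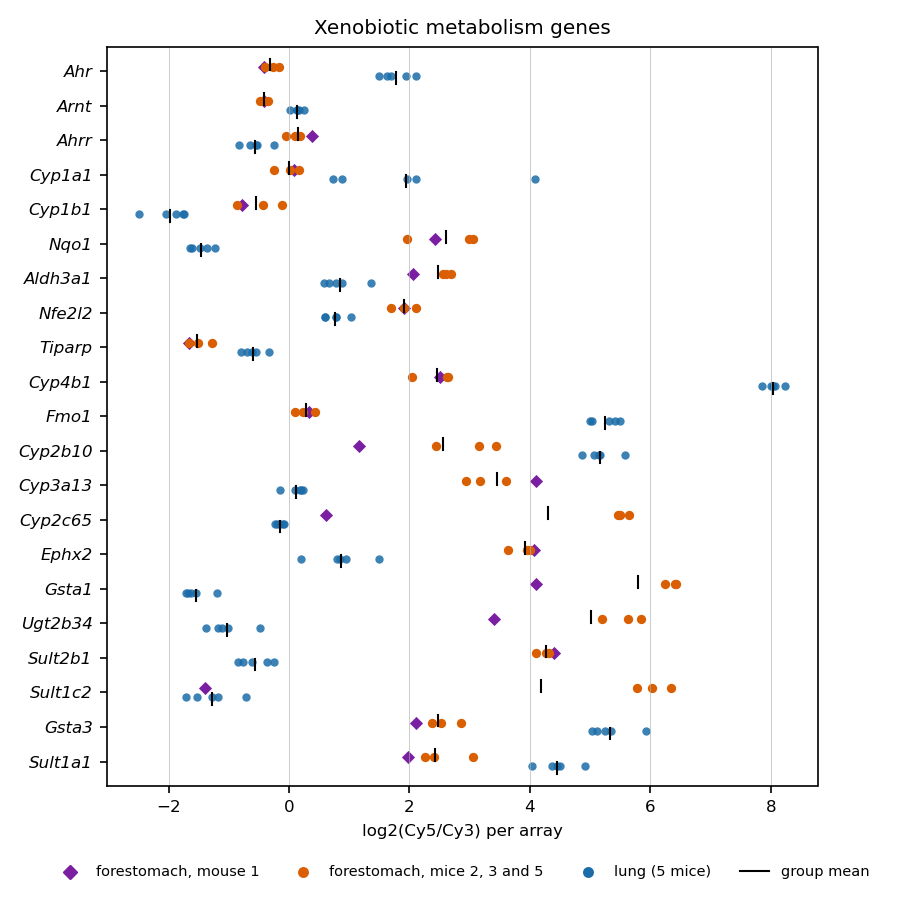
Log2(Cy5/Cy3) of single arrays for genes of the aryl hydrocarbon receptor pathway and for oxidizing and conjugating enzymes; purple diamonds are forestomach mouse 1, orange points forestomach mice 2, 3 and 5, blue points 5 lungs and black ticks group means. Ahr, Cyp1a1, Cyp4b1 and Fmo1 lie to the right in lung, Nqo1, Gsta1, Ugt2b34 and Sult2b1 in forestomach, and the diamond lies apart for Cyp2c65 and Sult1c2.

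Most genes of cell division were higher in forestomach. Of 24, 19 were higher and none was lower, with a median of 1.23. With arrays centred on the median, 8 were higher. Which cells of the pieces carried this signal was not tested. Birc5, a protein of the dividing spindle, read −1.97, −2.29, −1.89 and −1.71 in forestomach against −4.69, −4.75, −4.39, −4.56 and −4.67 in lung, a difference of 2.65 ± 0.12 (SE), adjusted p = 1.56e-08. Mki67, the antigen of cycling cells, read −2.11, −2.57, −1.79 and −1.83 in forestomach against −4.17, −4.41, −4.11, −4.16 and −4.39 in lung, and Ccna2, cyclin A, and Top2a, a topoisomerase of dividing cells, differed by 2.10 ± 0.17 and 1.75 ± 0.16. Values of all 4 were below 0 in both tissues, that is, below the reference of cultured cell lines. Pcna, the clamp of DNA replication and repair, read −1.20, −2.11, −2.18 and −1.82 in forestomach against −1.76, −1.65, −1.45, −1.72 and −1.75 in lung and was not called (−0.16 ± 0.18).

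Genes lower in forestomach that belonged to no cell list included Inmt, indolethylamine N-methyltransferase, with the most negative difference of all. It read −0.65, −1.41, −1.63 and −1.84 in forestomach against 5.56, 5.89, 5.92, 5.95 and 5.87 in lung, a difference of −7.22 ± 0.20 (SE), adjusted p = 2.69e-10. Hp, haptoglobin, which scavenges free hemoglobin, differed by −6.39 ± 0.11. Mlc1, a membrane protein, read 0.05, −0.19, −0.35 and −0.35 in forestomach against 6.57, 6.00, 5.24, 6.20 and 5.72 in lung and was at least 62.2-fold lower in forestomach.

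The same comparison was made in mice gavaged with IP, which share no array with the vehicle comparison. Each dose group had 5 forestomachs and 5 lungs. Between 10725 and 11020 probes were called at the low, middle and high dose (12.5, 25 or 50 mg/kg-bw/day). Of the 10954 vehicle calls, 85.4, 85.9 and 86.5% were called in the same direction at these doses, and 0, 0 and 2 were called in the opposite direction. Of the 1973 vehicle calls with a fold change of 4 or more, 1859, 1874 and 1904 were called the same way. For Krt1 the differences were 8.14, 8.42 and 8.13, and for Sftpa1 −6.63, −6.81 and −6.65. For Anxa10 they were 4.22, 4.11 and 5.03. Birc5 differed by 2.24, 2.03 and 1.15, against 2.65 in vehicle mice.

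Whether the tissue difference itself differed from that of vehicle mice was tested as an interaction over all probes. No probe was called at the low and middle dose, where 1584 and 1346 had an unadjusted p under 0.05, and 1 was called at the high dose, where 1965 did. It was Cyp1b1, at −3.39 ± 0.56 (SE), adjusted p = 0.0358. The forestomach mean was −0.55 with vehicle and −0.30 at the high dose, and the lung mean was −1.98 with vehicle and 1.67 at the high dose. In this gene the tissue difference was 1.43 in vehicle mice and 0.52, 0.04 and −1.96 at the 3 doses. Cyp1a1 differed by −2.02, −4.11 and −5.15, and its interaction was not called.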

How the data were processed

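RNA of each tissue (Cy5) and universal mouse reference RNA (Cy3) were hybridised together to 2-colour mouse gene expression arrays without dye swaps. Per the file headers the scans were read with Agilent Feature Extraction 10.7.3.1, and the deposited median intensity of each colour, without background subtraction, was the starting point here, as in the authors' LOWESS procedure. Control and outlier spots were left out, log2(Cy5/Cy3) was loess normalized within each array, and spots of a probe were averaged to 55681 probes. The authors' deposited log2 ratios and the deposited log10 ratios of the scanner software served as alternatives. Arrays were grouped by title. The 4 forestomach and 5 lung vehicle arrays were compared with limma 3.58.1 (lmFit, eBayes, two-sided) in R 4.3.3, with Benjamini-Hochberg adjustment over all probes, and the number of arrays limits the precision. The procedure was tested on simulated data. No column of unknown origin was used. Members, gene lists and alternatives were chosen with earlier results of these data known. Named genes were the 10 with the largest differences in each direction whose groups did not overlap, up to 6 members of each list by size of difference and its defining members, members that opposed their list, and the 10 with the largest SD in each tissue. Not all of these are printed, some genes are not reported here, and Lce1b, Tdpoz8, Sprr2a2, Kdr and Tssk6 were named after their values were seen. Promoters came from RefSeq (GRCm38.p6), and no array coordinates are given.

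Mouse numbers were taken to mark the same animal in both tissues, as the labels number them. Correlations of same-mouse deviations from the tissue means were 0.013, 0.134, 0.0025 and 0.232 for mice 1, 2, 3 and 5. Mice 1, 2 and 5 also share a slide between tissues, and mouse 3 does not. The highest correlation of all pairs, 0.246, was that of forestomach mouse 3 and lung mouse 4. These are different mice on the same slide. The link of mice across tissues therefore rests on the labels. Alternatives were normexp background correction (offset 50), median centring, Cy5 alone, the other deposited ratios, outlier spots kept, dim probes left out, mouse or slide as a block, all 39 arrays, trended and robust variances, other thresholds, and leaving out each array.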

Additional observations from a re-analysis of the deposited data

Results flagged for a closer look

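In 346 sets of vehicle arrays of a tissue, each for a gene with values in the report, 46 held an array that stood far from the others by Dixon's criterion. The usual chance rate of about 1 in 20 cannot be set against this count. Some genes were named for their large SD, and the sets reuse the same arrays. Of the 46, 32 were forestomach mouse 1, 4 another forestomach and 10 a lung. Values are log2(Cy5/Cy3), each against the range of the other arrays of its tissue, and none of these patterns was tested for a cause.

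Genes of gastric type, with Try4 of pancreas and Ttr and Apoa1 of liver, set forestomach mouse 1 below mice 2, 3 and 5. Gkn2 read 0.99 against 8.27 to 8.30, Cblif read 0.24 against 8.64 to 8.71 and Atp4b read 0.17 against 6.72 to 7.11. Tff1 read 2.18 against 6.09 to 6.41, Muc5ac read 1.28 against 6.14 to 6.32 and Pgc read 0.02 against 4.93 to 5.28. Tff2 read 0.01 against 5.20 to 5.46, Chia1 read 0.51 against 8.19 to 8.82 and Try4 read −0.43 against 5.71 to 6.05. Ttr read 0.51 against 4.79 to 5.57, Apoa1 read 0.21 against 4.96 to 5.17 and Anxa10 read 0.06 against 8.88 to 9.10. Bpifb1 read 0.20 against values close to 5.00 and Foxa2 read −0.64 against 3.59 to 3.81. Keratins and other epithelial genes were also lower in this array. Krt10 read 6.33 against 7.06 to 7.19, Krt8 read −3.43 against 1.05 to 1.86 and Krt18 read −3.89 against 0.31 to 0.77. Krt19 read −1.90 against 3.48 to 3.90, Krt20 read −2.83 against 2.75 to 3.04 and Lor read 6.30 against 7.31 to 7.42. Pitx1 read 4.62 against 5.36 to 5.40. Further genes followed the same direction. Pparg read 1.56 against 2.52 to 2.72, Tbx4 read −0.16 against 0.50 to 0.55 and Myh7 read 0.07 against 1.71 to 1.99. Cyp2c65 read 0.61 against 5.47 to 5.64, Gsta1 read 4.10 against 6.25 to 6.43 and Sult1c2 read −1.39 against 5.78 to 6.34. Gsto1 read 1.98 against 3.97 to 4.25. In the opposite direction, forestomach mouse 1 was the highest for 4 genes. Sftpc read 4.12 against 0.62 to 1.11, Grhl3 read 6.68 against 5.80 to 5.88 and Cd79b read −3.31 against −4.29 to −4.18. Adipoq read 1.96 against 0.07 to 0.19.

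Among the other forestomachs the values that stood apart were smaller in distance. Rptn read 6.13 in mouse 3 against 6.79 to 6.87, Bpifa1 read −0.10 in mouse 5 against 0.09 to 0.12 and Ccna2 read −2.43 in mouse 2 against −1.81 to −1.69. Top2a read −2.84 in mouse 2 against −2.20 to −2.16. In lung, mice 1, 2, 3 and 5 each had such a gene. Krt6b read 0.08 in mouse 5 against 0.23 to 0.29, Inmt read 5.56 in mouse 1 against 5.87 to 5.95 and Hc read 4.26 in mouse 3 against 6.49 to 6.82. Krt5 read 1.99 in mouse 5 against 0.00 to 0.24, Krt20 read −2.20 in mouse 3 against −3.96 to −3.53 and Actg2 read 0.96 in mouse 5 against −0.20 to 0.05. Try4 read −1.17 in mouse 1 against −0.64 to −0.55, Apoa1 read −0.12 in mouse 3 against 0.02 to 0.07 and Gzma read 4.09 in mouse 2 against 4.70 to 4.89. Gsto1 read 1.06 in mouse 5 against −0.51 to −0.13.

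The tissue difference of Cyp1b1 differed between mice at 50 mg/kg-bw/day of IP and vehicle mice, by −3.39 in the interaction test over all probes. It was the single probe called at that dose.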

How the results depend on the processing

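The count of called probes was 9399 to 13509 in 12 other settings with the same thresholds, against 10954. It was 10674 to 11191 when each array was left out, with 4871 to 5281 higher in forestomach and 5705 to 6054 lower. Mouse as a replicate block, 1 of the 12, leaves out lung mouse 4 and gave 10970 probes (10994 as a random block). Of the named genes, the replicate block changed the call of Igfbp2 alone, while the random block changed that of Scgb3a1 alone. Without forestomach mouse 1, 91.1% of the calls were kept. Centring arrays on the median kept 72.1% and gave 2412 probes higher and 10235 lower. The counts moved with the threshold: a fold change of at least 2 gave 5897 (2612 higher, 3285 lower), of at least 4 gave 1973 (967 and 1006), no fold threshold 18008 (8364 and 9644), and gene names in place of probes 6428 (2948 and 3480).

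Of 173 named genes, 153 were called, and 134 of these kept call and direction in 11 settings with all arrays and in the 9 that left out an array. Directions turned for a few uncalled values. Krt18 was 0.54 without forestomach mouse 1 and down to −1.02 without another array. Krt19 was −0.25 with median centring, −0.30, −0.31 and −0.17 without forestomach mice 2, 3 and 5, and 1.62 without mouse 1. Bpifb1 was −0.18 with median centring, −0.17 without lung mouse 2, −0.11 without forestomach mouse 2, 3 or 5, and 1.49 without forestomach mouse 1. The median of the simple epithelium keratins was −0.25 with median centring, −0.18 with dim probes left out, and −0.31 to 1.62 with each array left out, as low as −0.30, −0.31 and −0.17 without forestomach mice 2, 3 and 5. The median of the aryl hydrocarbon receptor list was 0.0039 with the mean over all probes of a gene. Of list counts, glandular stomach genes called higher were 5 with dim probes left out and 6 with the scanner ratio, and endothelial genes called lower were 12 with the scanner ratio. The causes were not tested. Probes near background give only bounds, and ratios of bright probes whose reference channel shifted may understate differences.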
